A study of Mus musculus with 12 samples.

Results

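The genes described here are the 3 chains of complement C1q (C1qa, C1qb and C1qc), the anaphylatoxin receptors C3ar1 and C5ar1, properdin (Cfp), and the integrin alpha chains Itgam and Itgax of complement receptors 3 and 4. They were taken by name, by a rule that uses no measured value but was written with earlier results of these data known, and are 8 of the 40840 genes listed for each sample. RNA was sequenced from the immune cell fraction of mouse liver, labelled as hepatic macrophages, in a study asking whether caspase-11 takes part in fatty liver disease induced by high-fat diet. Male mice entered the diets at 8 to 10 weeks of age and were then fed a high-fat diet (HFD) or kept on chow (normal chow diet, NCD) over 12 weeks. The 4 groups were wildtype C57BL/6 mice (C57BL/6J background) on chow (WT-NCD) or high-fat diet (WT-HFD), and mice of strain B6.129S4(D2)-Casp4tm1Yuan/J, a constitutive caspase-11 knockout, on either diet (Casp11-/- NCD and Casp11-/- HFD). Each group had 3 libraries, 12 in all, and because the knockout is present in every cell of the mouse, its groups do not separate macrophages from other cells.

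Complement is a set of plasma proteins that mark microbes and dying cells for removal. C1q starts the classical pathway by binding antibody or altered cell surfaces, and unlike most complement proteins, which hepatocytes secrete, it is made largely by macrophages and related myeloid cells. In the liver, the resident macrophages are the Kupffer cells, which line the sinusoids and take up complement-coated particles. The receptors described here read the products of the cascade: C3ar1 and C5ar1 bind the small fragments C3a and C5a, and the integrins bind surfaces coated with inactivated C3b.

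All levels are given as deposited under the name TPM, transcript abundance scaled by transcript length and by the library's total. The totals exceed those of true TPM, so the values are a score on a TPM-like scale, and ratios between genes rest on the authors' scaling by length. The lowest value listed was 1.01 TPM, a floor at which 54.0 to 68.3% of genes stood in 11 of the 12 libraries. A difference is given as a log2 fold change of TPM + 1, and a gene was called when its limma p-value, adjusted over all genes tested, was under 0.05. WT-NCD replicate 3 stood apart from the rest: 39677 genes were above the floor in it, against 12940 to 18775 in the other 11 libraries, and its Pearson correlation with any other library on the log2 scale was at most -0.068, against 0.846 to 0.986 among the others. The diet differences of the 8 genes are therefore given with all 12 libraries and without that one. Casp4, the gene of caspase-11, ranged from 5.60 to 15.6 TPM in WT and from 2.56 to 15.2 TPM in the libraries labelled Casp11-/-, so that the groups overlapped, and a value for the whole gene does not tell whether the deleted part was transcribed. The general macrophage genes Csf1r, Adgre1, Cd68 and Mpeg1 summed to 100.5 to 1036 TPM in the 11 libraries, while 4 hepatocyte genes summed to 5686 to 21269 TPM, so transcripts of hepatocyte genes were present in each of them.

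The 3 C1q genes lie side by side on chromosome 4, within 18.7 kb, and Itgam and Itgax lie 11.03 kb apart on chromosome 7. Their upstream sequences are shown because the C1q genes moved closely together in these libraries (Pearson's r of 0.991 to 0.998 on the log2 scale, 11 libraries), and the integrin neighbours less so (0.67). On build GRCm38.p6, the start and end of the genes are 136895916 and 136898844 for C1qa, 136880126 and 136886200 for C1qb, 136889801 and 136892936 for C1qc, 128062640 and 128118491 for Itgam, and 128129526 and 128150657 for Itgax. C3ar1 lies at 122847140 to 122856157 on chromosome 6, C5ar1 at 16246743 to 16259540 on chromosome 7 and Cfp at 20925454 to 20931555 on chromosome X. Sequences were matched for 7 of the 8 genes, all but C1qa, in a RefSeq table of build GRCm38.p6. Each sequence runs 5′ to 3′ on the gene's strand, from 250 bases to 31 bases before the transcript start. Capitals mark the core AGGAAG, or its reverse complement CTTCCT, of ETS family factors, to which the myeloid regulator PU.1 belongs, and TGANTCA, the AP-1 site, both searched on both strands.
C1qb, chr4:136886231-136886450, minus strand: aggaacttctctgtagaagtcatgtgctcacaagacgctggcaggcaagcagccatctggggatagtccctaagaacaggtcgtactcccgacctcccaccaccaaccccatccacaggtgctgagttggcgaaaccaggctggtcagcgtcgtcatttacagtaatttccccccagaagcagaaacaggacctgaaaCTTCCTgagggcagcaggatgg
C1qc, chr4:136892945-136893164, minus strand: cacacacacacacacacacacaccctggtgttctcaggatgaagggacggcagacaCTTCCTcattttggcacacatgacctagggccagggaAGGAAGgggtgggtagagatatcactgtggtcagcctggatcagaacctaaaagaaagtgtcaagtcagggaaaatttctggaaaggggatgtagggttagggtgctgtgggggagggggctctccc
Itgam, chr7:128062390-128062609, plus strand: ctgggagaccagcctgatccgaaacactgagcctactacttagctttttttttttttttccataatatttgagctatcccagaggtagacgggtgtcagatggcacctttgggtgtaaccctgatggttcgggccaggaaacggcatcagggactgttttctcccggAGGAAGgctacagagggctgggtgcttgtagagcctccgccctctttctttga
Itgax, chr7:128129300-128129519, plus strand: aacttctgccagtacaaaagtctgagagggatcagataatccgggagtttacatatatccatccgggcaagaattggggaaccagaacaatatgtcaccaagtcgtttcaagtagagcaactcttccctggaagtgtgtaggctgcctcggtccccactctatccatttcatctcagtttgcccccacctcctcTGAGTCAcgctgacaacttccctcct
The ETS core was found in 4 of the 7 windows (C1qb, C1qc, C5ar1 and Itgam) and in 26.1% of the 32851 windows of the same length in the table. The AP-1 site was found in Itgax alone of the 7, and in 6.12% of all windows. The letters TGCTGAC, recognised by MAF factors and searched on both strands, were found in none of the 7 and in 3.3% of all windows. C5ar1 held 3 matches of the ETS core, of which 2 overlap, C1qc held 2, and C1qb and Itgam held 1 each. A match is a description of the letters and does not show that a factor binds there.

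HFD feeding was accompanied by a rise of all 3 C1q chain genes in mice of both genotypes, with group means 3.78 to 7.06 times those on chow. C1qa, which encodes the A chain, was at 11.3, 7.37 and 12.3 TPM in WT on chow and at 87.8, 23.5 and 80.3 TPM in WT on HFD. In the Casp11-/- groups it was at 8.40, 6.87 and 15.9 TPM on chow and at 36.9, 31.9 and 49.0 TPM on HFD. Every HFD library was above every NCD library, and the lowest of the HFD libraries was WT-HFD replicate 2.

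C1qb, encoding the B chain, was at 20.5, 17.7 and 12.1 TPM in WT on chow and at 163, 35.7 and 156 TPM in WT on HFD. The Casp11-/- values of C1qb were 13.5, 10.1 and 25.3 TPM on chow and 66.5, 60.8 and 82.6 TPM on HFD. The diets again did not overlap, and WT-HFD replicate 2 was again the lowest HFD library. C1qc, encoding the C chain, was at 12.6, 10.6 and 11.9 TPM in WT on chow, and at 94.5, 23.1 and 95.1 TPM in WT on HFD. Its Casp11-/- values were 8.58, 6.74 and 15.4 TPM on chow and 41.9, 35.7 and 60.2 TPM on HFD. The C1q genes were the 3 of the 8 whose HFD and NCD libraries did not overlap across both genotypes, a pattern that 0.231% of all genes tested showed in this direction.

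**Figure D1:**
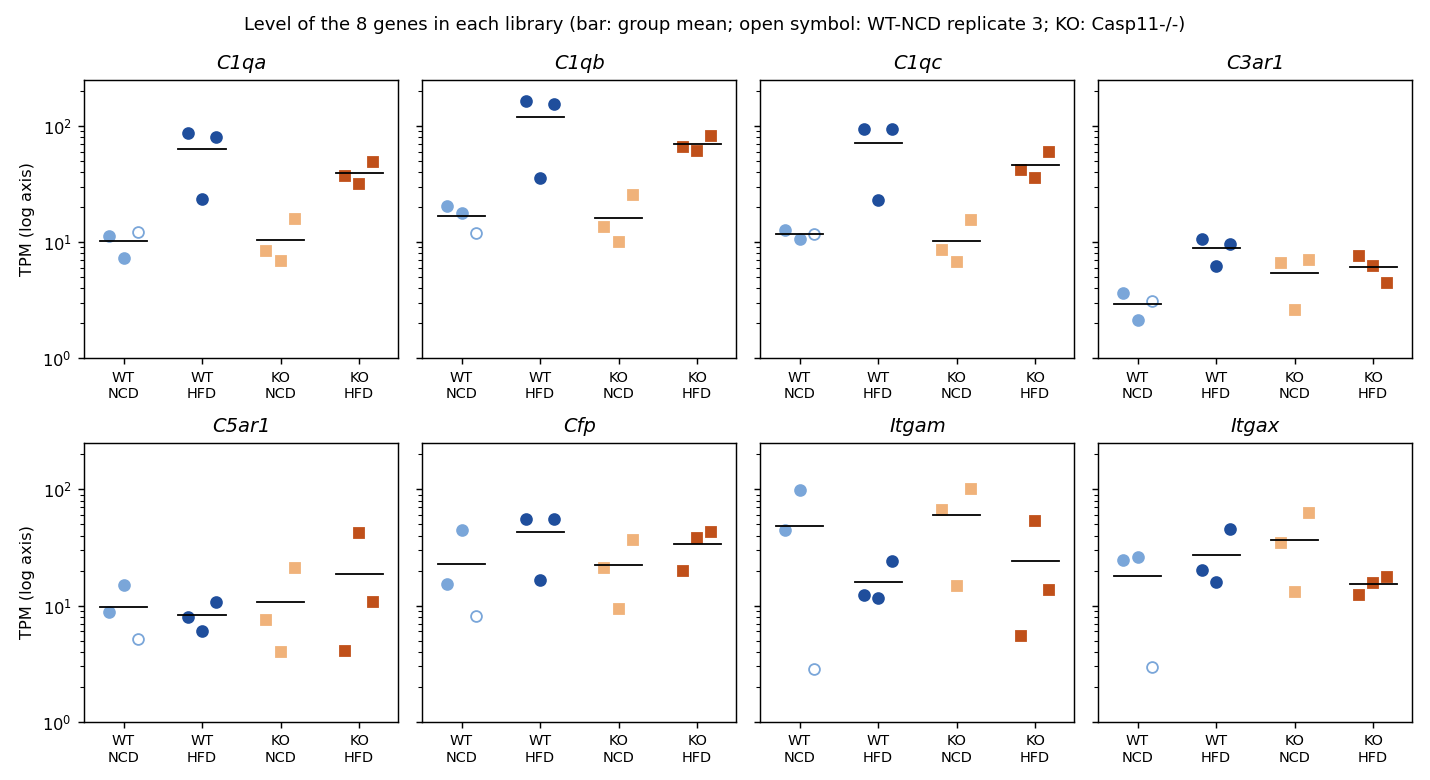
TPM on a log axis of each of the 8 genes in each of the 12 libraries, by group (3 libraries each), with the group mean as a bar and WT-NCD replicate 3 as an open symbol (KO, Casp11-/-). For C1qa, C1qb and C1qc all 6 HFD libraries lie above all 6 NCD libraries, while Itgam in WT-NCD replicate 3 lies at 2.84 TPM, far below its group.

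Averaged over both genotypes, the diet difference passed the test for all 3 chains with 12 libraries. The mean level of C1qa rose from 10.4 ± 3.49 TPM on NCD to 51.6 ± 26.6 TPM on HFD (SD, n = 6 each), a difference of 2.11 on the log2 scale (standard error, SE, 0.381, limma adjusted p = 0.0400). C1qb rose from 16.5 ± 5.71 to 94.1 ± 52.9 TPM (2.31, SE 0.423, limma adjusted p = 0.0433). C1qc rose from 10.96 ± 3.06 to 58.4 ± 30.6 TPM (2.18, SE 0.394, limma adjusted p = 0.0400). Of all 19498 genes tested, 8 were called higher on HFD in this comparison, or 0.041%, and these 3 were among them.

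The calls with 12 libraries lay close to the limit. Leaving out WT-NCD replicate 1 or 2, WT-HFD replicate 1 or 3, Casp11-/- NCD replicate 1 or 3, or any Casp11-/- HFD library left the C1q genes at limma adjusted p of 0.0745 to 0.136, with log2 fold changes of 1.94 to 2.49. Without WT-NCD replicate 3, in contrast, the limma adjusted p was 0.000667 for C1qa, 0.000843 for C1qb and 0.000783 for C1qc, at log2 fold changes of 2.17, 2.21 and 2.19. In that fit of 17950 genes, 1.07% of genes were called higher on HFD and 17.3% lower.

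Within each genotype, the same rise was measured with fewer libraries. In WT, the ratio of HFD to NCD mean levels was 6.18 for C1qa, 7.06 for C1qb and 6.07 for C1qc, and with 12 libraries their log2 fold changes of 2.26 to 2.50 had limma adjusted p of 0.185 to 0.235. None of the 8 genes was called there, where 0.0103% of genes were called higher. An unadjusted limma p under 0.05 was found for 4 of the 8, and for 6.96% of all genes. With WT-NCD replicate 3 left out, the 3 C1q genes were called in WT, with log2 fold changes of 2.47 for C1qa (limma adjusted p = 0.0163), 2.29 for C1qb (0.0375) and 2.27 for C1qc (0.0356), against 0.134% of all genes called higher. C1qb is among the macrophage markers that the study listed from these same libraries, as raised in both WT and Casp11-/- mice. Its direction in WT, in Casp11-/- and averaged over both is therefore not independent of that choice.

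In the Casp11-/- groups, the ratio of HFD to NCD mean levels was 3.78 for C1qa, 4.30 for C1qb and 4.49 for C1qc. With 12 libraries, 0 of the 8 genes and 0% of all genes were called between the Casp11-/- diets by limma, and 3 of the 8, the C1q genes, had an unadjusted p under 0.05 (adjusted p = 0.538 for each), as did 8.48% of all genes. Without WT-NCD replicate 3, a library of neither group but one that enters the shared estimate of the spread, C1qb (log2 fold change 2.12, limma adjusted p = 0.0491) and C1qc (2.11, 0.0474) were called, and C1qa was not (1.88, 0.0695), where 0.117% of all genes were called higher. With Casp11-/- HFD replicate 2 left out as well, none of the 3 was called in Casp11-/-.

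**Figure D2:**
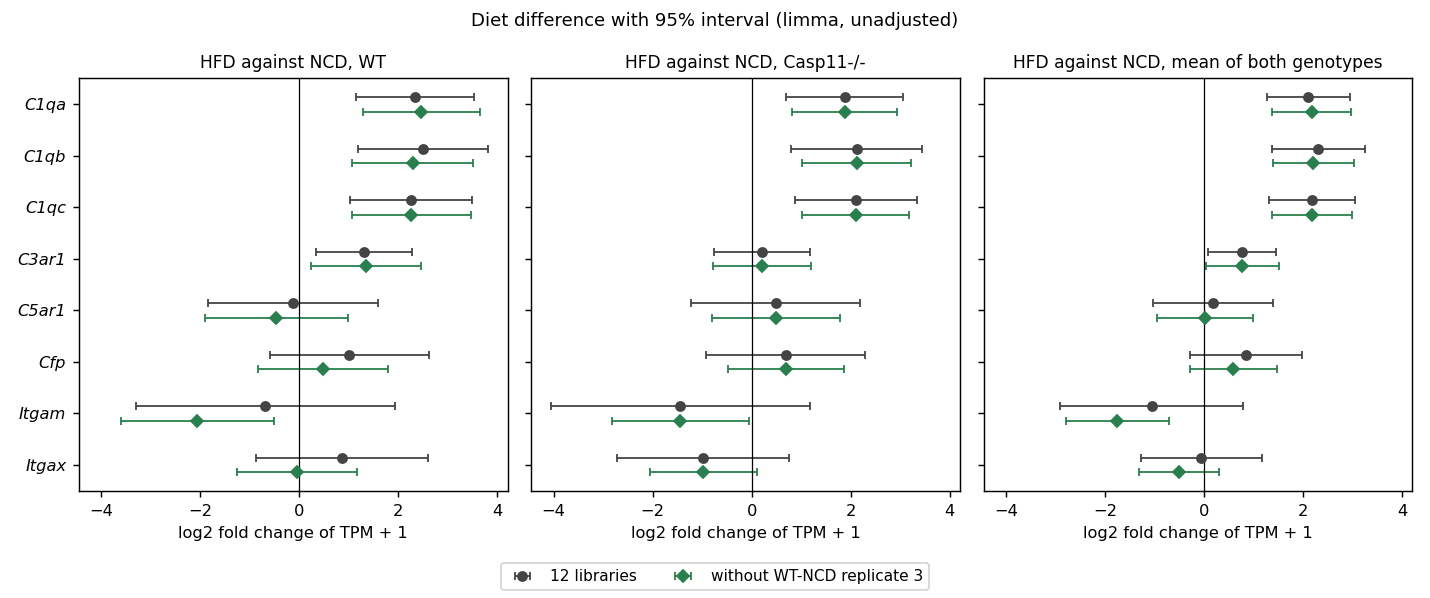
Log2 fold change of TPM + 1 between HFD and NCD for the 8 genes in WT, in Casp11-/- and averaged over both, with the unadjusted 95% interval from limma, from 12 libraries (circles) and without WT-NCD replicate 3 (diamonds). The C1q intervals lie above 0 in all 3 panels, and the Itgam estimate averaged over both genotypes moves from -1.06 to -1.75 when that library is left out.

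C1q is assembled from equal numbers of A, B and C chains, and the 3 transcripts varied little in proportion to each other. Across the 11 libraries, the ratio of C1qb to C1qa was 1.47 to 2.41 and that of C1qc to C1qa 0.964 to 1.44, and the ratios on the 2 diets overlapped. On the log2 scale, Pearson's r across these libraries was 0.991 between C1qa and C1qb, 0.993 between C1qa and C1qc and 0.998 between C1qb and C1qc. These correlations describe 11 libraries that also share differences in cell content.

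Genes of Kupffer cells moved with C1q. All 6 genes of the Kupffer cell list (Clec4f, Timd4, Cd5l, Marco, Folr2 and Cd163) were called higher on HFD without WT-NCD replicate 3, against 1.07% of all genes, and 2 of them with 12 libraries, against 0.041%. Marco, at the floor in all 5 other NCD libraries, passed the filter in the former fit through HFD libraries alone, so its call there is no support. Clec4f, Cd5l, Marco, Folr2 and Cd163 are among the macrophage genes that the study itself picked out from these libraries, so their direction is not independent of that choice. The 6 genes summed to 14.3 to 29.1 TPM in the 5 other NCD libraries and 111.7 to 357.4 TPM in the 6 HFD libraries, which did not overlap, and 36.1 TPM in WT-NCD replicate 3. Of all genes, 0.39% lay higher without overlap in those 11 libraries. Marco was also at the floor in Casp11-/- HFD replicate 2, Timd4 in Casp11-/- NCD replicate 2, and Cd163 in Casp11-/- NCD replicates 1 and 2. Genes of other cells moved with C1q as well. The sinusoidal endothelial list (Stab2, Clec4g and Lyve1) had Pearson's r of 0.70 to 0.73 with the C1q genes over the 11 libraries, with 2 of its 3 genes, Clec4g and Lyve1, called higher without WT-NCD replicate 3, and its sum was 17.1 to 190.4 TPM on NCD and 94.1 to 531.3 TPM on HFD, which overlapped. The B cell and NK cell lists had r of -0.64 to -0.72, and all 4 and all 3 of their genes were called lower in that fit, as were 17.3% of all genes. In a bulk sample, more cells of a type and more RNA of the gene per cell cannot be told apart, and the part of these cells in the C1q values was not tested beyond the ratios that follow.

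Clec4f, a lectin receptor restricted to Kupffer cells in mice, was at 5.48 and 4.48 TPM in the first 2 WT-NCD libraries, at 3.90 TPM in WT-NCD replicate 3, and at 98.3, 24.8 and 67.5 TPM in WT-HFD. In the Casp11-/- groups it was at 4.01, 4.82 and 12.1 TPM on chow and at 42.6, 32.9 and 59.5 TPM on HFD. The library with the lowest Clec4f on HFD was the one with the lowest C1qa, and Casp11-/- NCD replicate 3, highest for Clec4f among the NCD libraries, was also the highest of them for C1qa. Without WT-NCD replicate 3, the ratio of C1qa to Clec4f was 1.31 to 2.10 on NCD and 0.824 to 1.19 on HFD, and that of C1qa to Cd5l, a secreted macrophage protein, was 1.21 to 2.10 on NCD and 0.333 to 0.603 on HFD. C1qa per unit of Clec4f or of Cd5l was therefore lower in the HFD libraries, without overlap. Both are genes that the study picked out from these libraries as raised, so a gene that rose less falls relative to them. The share of all genes that did so was not counted. Not every gene of the Kupffer cell list rose more than C1qa. Without WT-NCD replicate 3, the ratio of HFD to NCD mean levels over both genotypes was 5.165 for C1qa. It was 8.777 for Clec4f, 9.234 for Folr2 and 16.21 for Cd5l, but 5.295 for Timd4, 4.858 for Cd163 and 3.232 for Marco.

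Relative to Csf1r, the growth factor receptor of all macrophages and monocytes, the order was the opposite one. Without WT-NCD replicate 3, the ratio of C1qa to Csf1r was 0.066 to 0.414 in the 5 NCD libraries and 0.584 to 1.31 in the 6 HFD libraries. In WT-NCD replicate 3, with Csf1r at 3.43 TPM, it was 3.58, above every HFD library. The share of all genes apart from Csf1r in this way was not counted. Csf1r itself was 27.4 and 65.2 TPM in the first 2 WT-NCD libraries, 66.9, 40.3 and 111 TPM in WT-HFD, 64.9, 17.1 and 242 TPM in Casp11-/- NCD and 35.1, 54.3 and 55.1 TPM in Casp11-/- HFD. Its levels on the diets overlapped, and none of the 4 general macrophage genes was called in the mean of both genotypes.

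**Figure D3:**
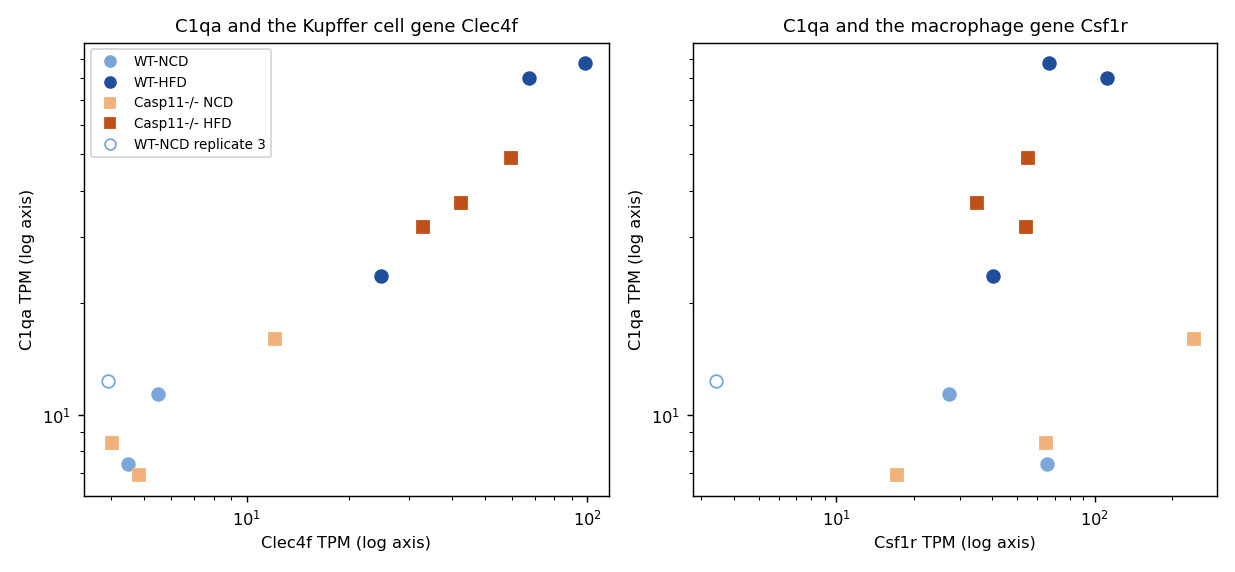
TPM of C1qa against Clec4f (left) and against Csf1r (right) in the 12 libraries, on log axes, by group. C1qa and Clec4f rise together over the 11 libraries, while Csf1r spans 17.1 to 242 TPM on NCD without a matching span of C1qa, and WT-NCD replicate 3 lies at the left of both panels.

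The anaphylatoxin receptors were not called between the diets on the TPM scale. C3ar1, the receptor of C3a, was at 3.63, 2.12 and 3.10 TPM in WT on chow and at 10.6, 6.28 and 9.62 TPM in WT on HFD. In the Casp11-/- groups it was at 6.62, 2.63 and 7.03 TPM on chow and at 7.65, 6.18 and 4.47 TPM on HFD. The diets were apart in WT, as for 1.98% of all genes in this direction, and overlapped in Casp11-/-.

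The diet difference of C3ar1 in WT was 1.31 log2 units (SE 0.441, limma adjusted p = 0.512), and 1.34 when WT-NCD replicate 3 was left out (SE 0.538, limma adjusted p = 0.249). In Casp11-/- it was 0.20 (SE 0.441, limma adjusted p = 0.974). The difference of these diet effects, the interaction of diet and genotype, was -1.10 with a 95% interval of -2.48 to 0.27 (limma adjusted p = 0.780), so a difference between the genotypes was not shown for C3ar1.

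C5ar1, the receptor of C5a, was at 8.79, 14.9 and 5.18 TPM in WT on chow and at 7.90, 6.10 and 10.7 TPM in WT on HFD. Its Casp11-/- values were 7.46, 3.96 and 20.9 TPM on chow and 4.06, 41.9 and 10.7 TPM on HFD. The diets overlapped in both genotypes, and Casp11-/- HFD replicate 2 was the highest of all libraries. Averaged over both genotypes, the difference was 0.18 log2 units (SE 0.550, limma adjusted p = 0.820), and 0.01 when WT-NCD replicate 3 was left out (SE 0.470, limma adjusted p = 0.986), with a 95% interval of -0.96 to 0.98.

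Neutrophils also carry C5ar1, and their genes stood out in the same library. The 7 genes of the neutrophil list summed to 4286 TPM in Casp11-/- HFD replicate 2 and to 110.6 to 910.1 TPM in the other 10 of the 11 libraries, with S100a8 at 2414 TPM and Cxcr2 at 117 TPM in that library. Across the 11 libraries, Pearson's r between C5ar1 and the log2 sum of the neutrophil list was 0.82. It was 0.57 with the general macrophage list, 0.52 with the monocyte list and 0.034 with the Kupffer cell list. These values include Casp11-/- HFD replicate 2, the highest library for both C5ar1 and the neutrophil sum. No r was computed without it, so their order may rest on that library. Leaving out this library and WT-NCD replicate 3, the averaged difference of C5ar1 was -0.40. The part of the neutrophil genes in the C5ar1 values was not tested.

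Cfp encodes properdin, the plasma protein that stabilises the convertase of the alternative pathway and is made by myeloid cells. It was at 15.2, 45.0 and 8.13 TPM in WT on chow and at 55.5, 16.5 and 55.7 TPM in WT on HFD. In the Casp11-/- groups, Cfp was at 21.0, 9.28 and 36.7 TPM on chow and at 19.9, 38.4 and 42.7 TPM on HFD. The diets overlapped in both genotypes. WT-HFD replicate 2, the lowest HFD library as for C1q, lay here within the NCD range, as did every Casp11-/- HFD library. The averaged difference was 0.85 log2 units (SE 0.515, limma adjusted p = 0.426), and 0.59 when WT-NCD replicate 3 was left out (SE 0.428, limma adjusted p = 0.295). Without WT-NCD replicate 3, Cfp per unit of Csf1r was 0.152 to 0.691 on NCD and 0.410 to 0.830 on HFD, which overlapped. In WT-NCD replicate 3 it was 2.37, above every HFD library.

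Itgam encodes CD11b, the alpha chain of complement receptor 3, which monocytes and neutrophils carry at high levels. It was at 44.8, 97.9 and 2.84 TPM in WT on chow and at 12.2, 11.6 and 24.3 TPM in WT on HFD. The Casp11-/- values of Itgam were 65.9, 14.6 and 100.3 TPM on chow and 5.51, 53.8 and 13.7 TPM on HFD. Without WT-NCD replicate 3, the WT diets did not overlap and HFD was the lower, a pattern that 40.3% of all genes showed in a comparison of 2 libraries with 3. In Casp11-/- the diets overlapped, since NCD replicate 2 was low and HFD replicate 2 high.

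With 12 libraries, the averaged difference of Itgam was -1.06 log2 units (SE 0.839, limma adjusted p = 0.554). Without WT-NCD replicate 3 it was -1.75 (SE 0.504, limma adjusted p = 0.0251), so Itgam was called lower on HFD, as were 17.3% of the genes tested. Without Casp11-/- HFD replicate 2 as well, it was -2.17 (limma adjusted p = 0.00267). In WT alone the value was -2.06 without WT-NCD replicate 3 (SE 0.751, limma adjusted p = 0.204), and in Casp11-/- alone -1.44 (SE 0.672, limma adjusted p = 0.174). The median of all genes in the averaged comparison was itself -0.39 in that fit.

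Genes of monocytes, neutrophils and several other cell types moved with Itgam. Across the 11 libraries, Pearson's r on the log2 scale was 0.81 with the sum of the monocyte list and 0.74 with the neutrophil list. It was 0.78 with the B cell list, 0.75 with the NK cell list and 0.64 with the T cell list. With the general macrophage list it was 0.60, with the dendritic cell list 0.52 and with the Kupffer cell list -0.61. The monocyte list summed to 303.4 and 1250 TPM in the first 2 WT-NCD libraries and to 284.6 to 486.9 TPM in WT-HFD, and the neutrophil list to 841.3 and 910.1 TPM against 269.6 to 425.9 TPM. In Casp11-/- the monocyte list summed to 140.7 to 670.0 TPM on NCD and 114.5 to 404.2 TPM on HFD, and the neutrophil list to 258.8 to 726.4 TPM on NCD and 110.6 to 4286 TPM on HFD, overlapping on either side. None of the 5 monocyte or 7 neutrophil genes was called in the averaged comparison. The part of any of these cell types in the Itgam values was not tested.

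**Figure D4:**
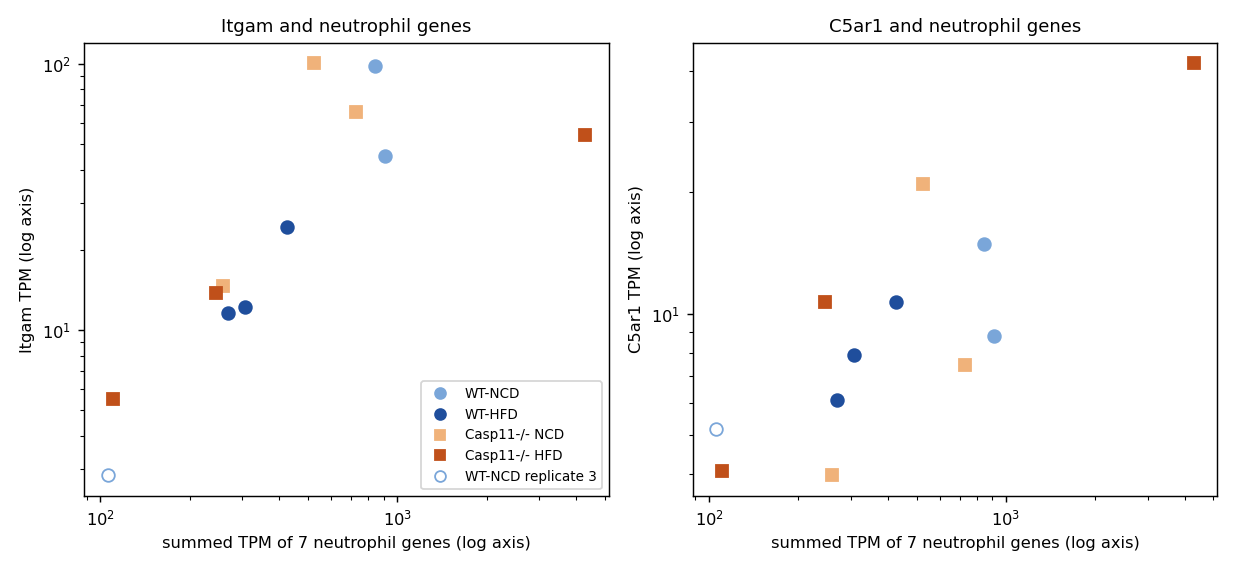
TPM of Itgam (left) and C5ar1 (right) against the summed TPM of the 7 neutrophil genes in each of the 12 libraries, on log axes, by group. Casp11-/- HFD replicate 2, at 4286 TPM of neutrophil genes, is the highest library for C5ar1 at 41.9 TPM, while for Itgam, at 53.8 TPM, it lies below 3 NCD libraries.

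Itgax encodes CD11c, the alpha chain of complement receptor 4, a common marker of dendritic cells that some macrophages also carry. It was at 24.6, 26.1 and 2.98 TPM in WT on chow and at 20.4, 15.9 and 45.5 TPM in WT on HFD. In the Casp11-/- groups it was at 34.4, 13.04 and 62.2 TPM on chow and at 12.3, 15.7 and 17.6 TPM on HFD. The diets overlapped in each genotype. The averaged difference was -0.05 log2 units (SE 0.556, limma adjusted p = 0.948), and -0.51 when WT-NCD replicate 3 was left out (SE 0.394, limma adjusted p = 0.323). Pearson's r with the sum of the dendritic cell list was 0.94 across the 11 libraries. It was 0.82 with the general macrophage list, 0.67 with the monocyte list, 0.65 with the B cell list, 0.56 with the T cell list and -0.18 with the Kupffer cell list. The part of these cells in the Itgax values was not tested.

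The ratio of the integrin chains to each other differed between most libraries of the diets. Leaving out WT-NCD replicate 3, the ratio of Itgam to Itgax was 1.12 to 3.75 in the NCD libraries and 0.534 to 0.728 in WT-HFD, and 0.448 to 3.43 in Casp11-/- HFD, where replicate 2 was the highest. Itgb2, the CD18 beta chain that pairs with both, was at 125, 191 and 4.47 TPM in WT on chow, 67.6, 42.9 and 141 TPM in WT on HFD, 262, 56.8 and 277 TPM in Casp11-/- NCD and 33.0, 113 and 45.4 TPM in Casp11-/- HFD. Its averaged log2 fold change was -1.28 without WT-NCD replicate 3 (SE 0.454, limma adjusted p = 0.0503), just short of the limit, and -0.48 with 12 libraries (limma adjusted p = 0.694).

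Since protein-coding genes took 15.7 to 42.4% of the TPM total in the 11 libraries, the diet differences were also computed on 2 other scales. With protein-coding genes scaled to equal totals and WT-NCD replicate 3 left out, C1qa, C1qb and C1qc rose by 2.80, 2.85 and 2.82 (limma adjusted p = 0.000205, 0.000256 and 0.000256). The median of the 12365 protein-coding genes tested was -0.05. Over the 17950 genes of all kinds tested on the TPM scale it was -0.39, a different set of genes. With these genes rescaled, C3ar1 (1.33, limma adjusted p = 0.00516) and Cfp (1.23, 0.0255) were called as well, and Itgam was not (-1.11, 0.122). In all, 5 of the 8 genes were called higher, against 7.45% of the protein-coding genes tested. With all 12 libraries and protein-coding genes rescaled, the C1q genes rose by 2.52 to 2.74 (limma adjusted p = 0.00356 to 0.00463). C3ar1 rose by 1.13 (limma adjusted p = 0.0324), while Cfp was not called (1.29, limma adjusted p = 0.0522). Of the protein-coding genes tested, 2.38% were called higher there.

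Relative to the mean of the 4 general macrophage genes in the same 11 libraries, the median of all genes was -0.51, and C1qa, C1qb and C1qc were higher by 2.06, 2.09 and 2.07 (limma adjusted p = 0.000541, 0.000538 and 0.000500), where 0.323% of all genes were called higher. With all 12 libraries, WT-NCD replicate 3 having only 21.1 TPM of those genes in sum, the median of all genes was -1.28, the C1q values were 1.43 to 1.63 and none of them was called (limma adjusted p = 0.0821 to 0.180), where 0.0154% of genes were called higher. In WT alone the C1q differences relative to the macrophage genes were 0.57 to 0.81 with 12 libraries, with 95% intervals that include 0 (limma adjusted p = 0.314 to 0.519), and 1.70 to 1.90 without WT-NCD replicate 3 (limma adjusted p = 0.0893 to 0.124), so that no C1q gene was called in either. With 11 libraries, Itgam was lower by that measure, at -1.87 (limma adjusted p = 0.00266), as were 7.75% of all genes, and with 12 libraries it was -1.74 (limma adjusted p = 0.0252), where 4.46% were. In WT alone without WT-NCD replicate 3, Itgam relative to the macrophage genes was called at -2.63 (limma adjusted p = 0.00799), and 3.63% of genes were called lower there.

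**Figure D5:**
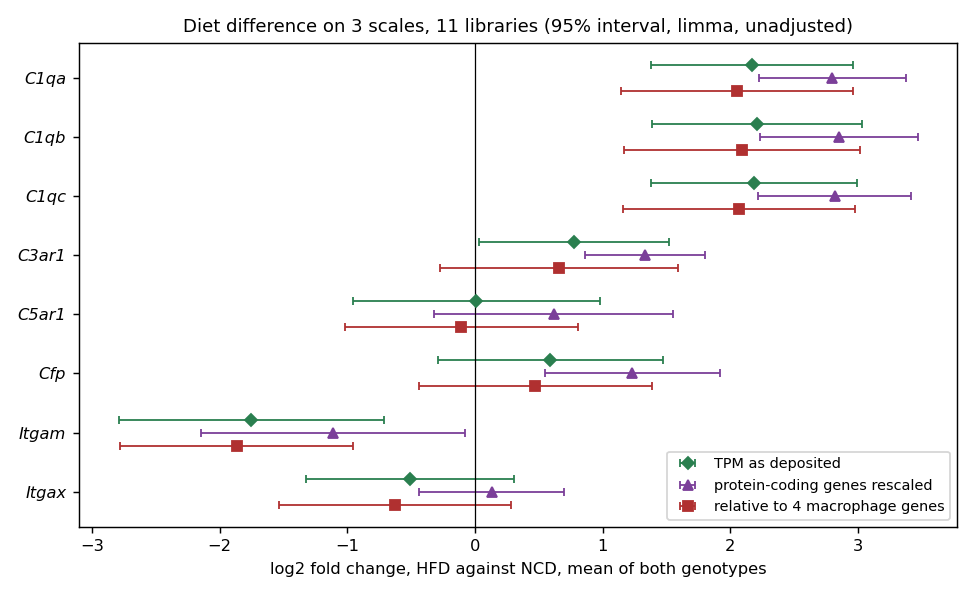
Log2 fold change between HFD and NCD, averaged over both genotypes, of the 8 genes without WT-NCD replicate 3, for TPM as deposited (diamonds), with protein-coding genes scaled to equal totals (triangles) and relative to 4 macrophage genes (squares), with the unadjusted 95% interval from limma. In these 11 libraries the C1q genes lie between 2.06 and 2.85 on the 3 scales, and Itgax and C5ar1 change sign.

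The effect of caspase-11 deficiency was tested on each diet, in the same libraries as the diet comparisons. On chow, 0 of the 8 genes were called between Casp11-/- NCD and WT-NCD by limma, as were 0% of all genes, and 0 of the 8 had an unadjusted p under 0.05, against 1.5% of all genes. The log2 fold changes with 12 libraries ran from -0.25 for C1qc to 1.17 for Itgax, and without WT-NCD replicate 3 none was called either, where 0.0557% of genes were. On HFD, 0 of the 8 and 0% of all genes were called between Casp11-/- HFD and WT-HFD, and 0 of the 8 had an unadjusted limma p under 0.05, against 0.154% of all genes.

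The mean level of each C1q chain on HFD was lower in Casp11-/- than in WT, but within the spread of the libraries. C1qa was at 63.9 ± 35.1 TPM in WT-HFD and at 39.3 ± 8.82 TPM in Casp11-/- HFD (SD, n = 3 each), or a difference of -0.50 log2 units with a 95% interval of -1.69 to 0.69. The corresponding means were 118.3 ± 71.6 and 70.0 ± 11.3 TPM for C1qb (-0.48, interval -1.80 to 0.84), and 70.9 ± 41.4 and 46.0 ± 12.7 TPM for C1qc (-0.40, interval -1.63 to 0.83). WT-HFD replicate 2 was below every Casp11-/- HFD library for all 3 genes, and the other WT-HFD libraries were above every one of them. The interaction of diet and genotype was -0.46 for C1qa, -0.38 for C1qb and -0.15 for C1qc, with 95% intervals reaching from -2.24 to 1.58 across the 3 genes. None of the 8 interactions was called with 12 libraries, where 0% of genes were, or without WT-NCD replicate 3, where 0.00557% were.

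The other genes of the complement system were read from a list of 44, of which 38 passed the filter on low values. Averaged over both genotypes, 1 of the 38 was called higher on HFD with 12 libraries and 0 lower, and without WT-NCD replicate 3, 3 were called higher and 1 lower. Over all genes, 0.041% were called higher with 12 libraries, and 1.07% higher and 17.3% lower without that one, so the share of the list called lower was below that of all genes. Their median log2 fold change was 0.75 and 0.34 in these fits, beside -0.61 and -0.39 over all genes tested. In the fit of 11 libraries the median was -0.23 in WT, with 13 of the 38 higher, beside -0.27 over all genes, and 0.82 in Casp11-/-, with 29 of the 38 higher, beside -0.51. The difference between the genotypes was not tested for the list. The one called in both was Vsig4, the receptor of C3b fragments on Kupffer cells.

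Vsig4 was at 6.41, 5.34 and 9.28 TPM in WT on chow and at 142.8, 46.6 and 86.4 TPM in WT on HFD. In Casp11-/- it was at 5.96, 6.06 and 11.7 TPM on chow and at 68.0, 41.6 and 82.4 TPM on HFD. The diets did not overlap, as for C1q, a pattern that 0.231% of all genes tested showed in this direction. Its averaged difference was 3.15 log2 units (SE 0.350, limma adjusted p = 0.00944), and 3.25 when WT-NCD replicate 3 was left out (limma adjusted p = 2.77e-06). In Casp11-/- alone it was 2.87, called when WT-NCD replicate 3 was left out (limma adjusted p = 0.00535).

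The other calls were made without WT-NCD replicate 3 only. Fcna, ficolin A, a recognition protein of the lectin pathway made by macrophages, was at 2.41 to 3.55 TPM in the 5 NCD libraries and at 6.01 to 33.2 TPM in the 6 HFD libraries (log2 fold change 2.02, limma adjusted p = 0.00247). That non-overlap was shown by 0.39% of all genes, and WT-NCD replicate 3, at 9.34 TPM, lay within the HFD range. The study also listed Fcna among the macrophage genes raised by HFD in these libraries, so its direction is not independent of that choice. Colec10, a collectin of the same pathway, was at 1.01 to 3.87 TPM on NCD and at 2.94 to 8.30 TPM on HFD, which overlapped (log2 fold change 1.15, limma adjusted p = 0.0290). Cr2, the B cell receptor of C3d, was at 9.46 to 43.3 TPM on NCD and at 4.01 to 7.43 TPM on HFD (log2 fold change -1.50, limma adjusted p = 0.0153), a non-overlap in that direction that 5.6% of genes showed. The B cell list summed to 362.6 to 1378 TPM in those NCD libraries and to 116.7 to 253.1 TPM in the HFD libraries, also without overlap, and its part in the Cr2 values was not tested.

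C3 and C5 are the proteins whose cleavage the cascade leads to, and neither gene was called between the diets. C3, the central component, was at 277 to 955 TPM in the 11 libraries and at 2.55 TPM in WT-NCD replicate 3, and Hc, the gene of C5, at 23.0 to 113 TPM and 2.39 TPM. With that library left out, the averaged difference of C3 was -0.26 (SE 0.410, limma adjusted p = 0.599), and with 12 libraries 1.01 (SE 1.21, limma adjusted p = 0.582). In WT alone it was -0.996 and 1.54 in these fits, a change of sign that rests on WT-NCD replicate 3. C5ar2, the second C5a receptor, was at 1.12 to 7.42 TPM in the 12 libraries, and its averaged difference was 0.69 log2 units (SE 0.308, limma adjusted p = 0.291), and 0.67 when WT-NCD replicate 3 was left out (SE 0.332).

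The genes whose pattern was most like that of C1qa over the 11 libraries, among 12792 protein-coding genes and by Pearson's r on the log2 scale, were C1qc (0.993), Timd4 (0.992), C1qb (0.991), Clec4f (0.985) and Folr2 (0.982). For Itgam they were Sorl1 (0.991), Mboat7 (0.987), Slfn2 (0.985), Cd177 (0.980), a surface protein of neutrophils, and Glipr2 (0.979). These lists of 5 could not share a gene at r this high, since C1qa and Itgam themselves had r of -0.52. With WT-NCD replicate 3 included, the lowest value within the lists was 0.938 for C1qa (Folr2) and 0.867 for Itgam (Cd177).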

How the data were processed

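Total RNA from the liver immune cell fraction in 12 samples was reverse transcribed with random primers, sequenced as single-end reads and aligned by the authors with STAR to mm10 (GRCm38.p6). The authors deposited TPM per gene, a score here, because no value lies under a floor of 1.01 and library totals exceed those of true TPM. No read counts were used, so the depth of each library is unknown and no count model was fitted. The filter kept genes exceeding the floor in 3 or more libraries, which were tested on log2(TPM + 1) with limma 3.58.1 in R 4.3.3, with an intensity trend, all 4 groups in 1 fit, and Benjamini-Hochberg adjustment over all genes tested (19498 with 12 libraries). All 8 genes passed the filter.

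The genes and lists were chosen with earlier results of these data known. Genes named were the 8, fixed partner genes, called genes of the complement list, and the 5 most like C1qa and Itgam. The labels give 3 samples per group. That each was a separate mouse is not stated in them, so p-values measure the spread between these samples. The heading in the file of Casp11-/- HFD replicate 2 abbreviates the genotype differently from the others. Alternatives covered scaling, pseudocount, filter, a replicate block and libraries left out.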

Additional observations from a re-analysis of the deposited data

How the results depend on the processing

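The C1q rise kept its direction under all alternatives run in each of the 3 diet comparisons, but not its size or its calls. Relative to the macrophage genes with 12 libraries, the C1q log2 fold changes in WT were 0.57 to 0.81, against 2.26 to 2.50. Averaged over both genotypes, 3 of the 8 genes were called, and 0 to 4 with 1 library left out, 5 with protein-coding genes rescaled and WT-NCD replicate 3 left out, and 1 (Itgam) relative to 4 macrophage genes with 12 libraries. In WT, where 0 were called, 0 to 3 were with 1 library left out, 1 with protein-coding genes rescaled or relative to the macrophage genes, 4 and 1 on these scales without WT-NCD replicate 3, and 3 without both that library and Casp11-/- HFD replicate 2, a setting chosen after seeing the data. In Casp11-/-, where 0 were called, 0 to 2 were with 1 library left out, 2 when only its 2 groups were fitted, and 3 on either of those scales without WT-NCD replicate 3. The causes of these changes were not tested.

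With a replicate block, 0 genes were called in the averaged comparison (limma adjusted p = 0.0618 for C1qa, 0.0815 for C1qb, 0.0657 for C1qc), and the block changed no other call. The numbers did not pair the samples: deviations of same-numbered libraries correlated at -0.642 to 0.470, over 0.1 in 7 of 18 pairs, and 2 of 12 libraries correlated best with their own number.

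Directions reversed only for differences that were not called as reported. In WT, relative to the macrophage genes with 12 libraries, C3ar1 was -0.38, Cfp -0.67 and Itgax -0.82, and without WT-NCD replicate 3 on that scale Cfp was -0.079 and Itgax -0.61. C5ar1 in WT was 0.16 with protein-coding genes rescaled and 0.21 without WT-NCD replicate 3 as well. With both libraries left out, Itgax in WT was -0.039 and C5ar1 was -0.34 in Casp11-/- and -0.40 on average. Averaged C5ar1 was -0.50 and -0.11 relative to the macrophage genes, with and without WT-NCD replicate 3, and averaged Itgax 0.40 and 0.13 with protein-coding genes rescaled. With 1 library left out, C5ar1 ranged from -0.46 to 0.22 in WT, -0.34 to 1.20 in Casp11-/- and -0.23 to 0.54 on average, Itgam from -2.06 to 0.28 in WT, Itgax from -0.039 to 1.35 in WT and -0.51 to 0.20 on average, and C3ar1 from -0.16 to 0.41 in Casp11-/-. The depth behind each value is unknown, and 3 libraries a group limit the precision.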
